A study of Homo sapiens with 7 samples.

Results

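The 26S proteasome is the protease complex that degrades most ubiquitin-tagged proteins in the cell. The genes described here are 34 of its constitutive subunits and regulatory particle chaperones, picked by gene symbol from the 57189 genes of the count table. They are PSMA1 to PSMA7, PSMB1 to PSMB7, PSMC1 to PSMC6 and PSMD1 to PSMD14. No expression value entered this rule, although earlier results of these data were known when the members were chosen. They comprised 7 alpha subunits and 7 beta subunits of the 20S core, 6 ATPases and 3 non-ATPase subunits of the base of the 19S regulatory particle, 8 subunits of its lid, and the 3 chaperones PSMD5, PSMD9 and PSMD10, which help to assemble the base and are not part of the finished particle. The subunits that replace catalytic core subunits in the immunoproteasome were not members and are described separately. ADRM1 (RPN13) and SEM1 were not members either and are counted below with the 19S-associated proteins.

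RNAseq was performed on RH30, an established alveolar rhabdomyosarcoma (RMS) cell line, with the genotype given as wt. Untreated cells (n = 4, replicates 1 to 4) were compared with cells that had been kept in medium with BV6 (5 µM, 24 h; n = 3, replicates 2 to 4). BV6 is a Smac mimetic, a small molecule that antagonizes inhibitor of apoptosis (IAP) proteins, and the question was how it alters transcription in RMS cells. No vehicle was named for the untreated cells, and RH30 cells expressing GFP and luciferase were used in the study, although the genotype label does not list these genes. Replicates 2, 3 and 4 of both groups carried the same codes in their titles, BC13, BC14 and BC25/27, whereas untreated replicate 1 (BC11) had no BV6 partner. What the BC codes stand for is not stated, and they are used here only to pair samples.

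In the 26S proteasome, the core is a barrel of stacked rings in which alpha subunits form the gate and beta subunits hold the proteolytic sites. The 19S particle binds ubiquitin chains, removes them and unfolds the substrate with its ring of ATPases before threading it into the core. IAP proteins that auto-ubiquitylate in the presence of a Smac mimetic, and the p100 precursor that is processed to p52 in non-canonical NF-κB signaling, are known substrates of this machine. Subunit genes are expressed in all cells and are known to be transcribed in a coordinated manner, with NFE2L1 (NRF1) raising them when proteasome activity is short.

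The libraries held between 54070030 and 77220882 counts, and 23124 genes passed the filter on low counts. These totals are well above the numbers of sequencing reads per library in the study's methods, and whether the mates of a read pair were counted separately is not given in the sources used here. All 34 members passed it, with 1253 to 30215 counts per library, so counting error was small beside the spread between replicates. The muscle and RMS markers MYOD1, MYOG, DES, PAX3, FOXO1 and CHRNG were expressed in every library, at 7.85 to 865 CPM, the count of a gene scaled to a common library size. Of 8 leukocyte and NK cell markers, 7 stayed below 1 CPM in every library. The remaining one, NKG7, reached 5.29 to 11.1 CPM, and the sum over the 8 markers was 9.78 to 13.3 CPM in untreated and 6.36 to 10.7 CPM in BV6-treated samples. The NF-κB target genes BIRC3, NFKB2 and NFKBIA were up-regulated by 4.86, 1.67 and 2.17 on the log2 scale, all past an adjusted p of 0.05 in edgeR. In bulk RNA, a smaller number of cells expressing a gene and less of its RNA per cell cannot be told apart.

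Promoter sequences from RefSeq (build GRCh38.p14, from 250 bases before to 50 bases after the annotated start) were found for 29 of the 34 members. PSMA7, PSMB1, PSMB6, PSMB7 and PSMD4 had no entry. They were searched on both strands for 6 short letter patterns of factors linked in general knowledge to housekeeping, NRF1/NRF2 or interferon-responsive promoters. A gene was counted once, as matched if any of its promoter entries held the pattern. CCGGAAG, the core letters bound by ETS factors, occurred in 11 of 29 members (37.9%) and in 12.2% of all 27305 genes with an entry. CCAAT, the NF-Y box, occurred in 16 members (55.2%) and in 39.7% of all these genes. Of the patterns of CNC-bZIP factors such as NRF1, TGACNNNGC was present in 9 members (31.0%; 16.1% of all) and TGAGNNNGC in 11 (37.9%; 21.6% of all). The stricter TGANTCAGC was found in PSMD9 alone among the members and in 1.66% of all these genes. Its matches also count for one of the former patterns where the fourth base is C or G. These counts describe letters in this window and no binding was measured.

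The ETS-type pattern is shown for PSMA6, the member with the smallest p upon BV6 treatment, for PSMD12, the member that varied most between samples, and for PSMD9, the member with the lowest level per length, which also carries the bZIP-type pattern. Capitals mark the match, and a match on the opposite strand appears as its reverse complement CTTCCGG. Each sequence is read along the strand of its gene. The lines give, in order, PSMA6 on the plus strand at chr14:35292369-35292398 and chr14:35292388-35292417, PSMD12 on the minus strand at chr17:67366567-67366596, and PSMD9 on the plus strand at chr12:121888670-121888699 and, for TGANTCAGC, at chr12:121888553-121888582. In PSMA6, the matches start at positions -2 and 18 relative to the RefSeq start, which lies inside the longer GENCODE gene.
PSMA6 first match: cggctggtaccCCGGAAGcagtcgctgcaa
PSMA6 second match: agtcgctgcaaCTTCCGGgaggtgcttgtg
PSMD12: tgcgcgggcaaCTTCCGGtgtgggtgacga
PSMD9 ETS-type: gcagggcgcggCTTCCGGtgacccagctcc
PSMD9 bZIP-type: aatgagaaaaTGAGTCAGCtggggcgagat

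Upon BV6 treatment, none of the 34 members passed the test. In the comparison of BV6 with untreated samples, 0 members were called at an adjusted p below 0.05 (edgeR quasi-likelihood test with Benjamini-Hochberg adjustment), where 104 of 23124 genes were called, 0.45% of those tested. At an unadjusted p below 0.05, 0 members were found against 8.39% of all genes. The fit blocked on replicate number gave 0 members after adjustment, where 0.943% of all genes were called, and 0 at the unadjusted threshold, which 11.4% of all genes passed. DESeq2 gave 0 members after adjustment, where 1.93% of all genes were called, and 0 at the unadjusted threshold, which 9.41% passed. The CPM values of the untreated and BV6-treated groups overlapped for every member, whereas 8.83% of all tested genes had groups that did not overlap.

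The intervals around the fold changes were narrow. Of the 34 log2 fold changes (BV6 over untreated), 16 were above and 18 below 0. Their median was -0.01, as was that of all tested genes, and they ran from -0.18 for PSMD9 to 0.25 for PSMA6. The standard errors of the members were 0.0960 to 0.185, with a median of 0.125 against 0.209 over all genes. The latter include genes of much lower counts, and the comparison was not matched for level. Every 95% interval lay within -0.50 to 0.55 on the log2 scale, which corresponds to folds between 0.705 and 1.47. With the replicate block, every interval lay within -0.40 to 0.41, or folds between 0.758 and 1.33. These intervals are per gene and are not adjusted for the number of members, and a change within them could not be told from none with these samples.

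**Figure D1:**
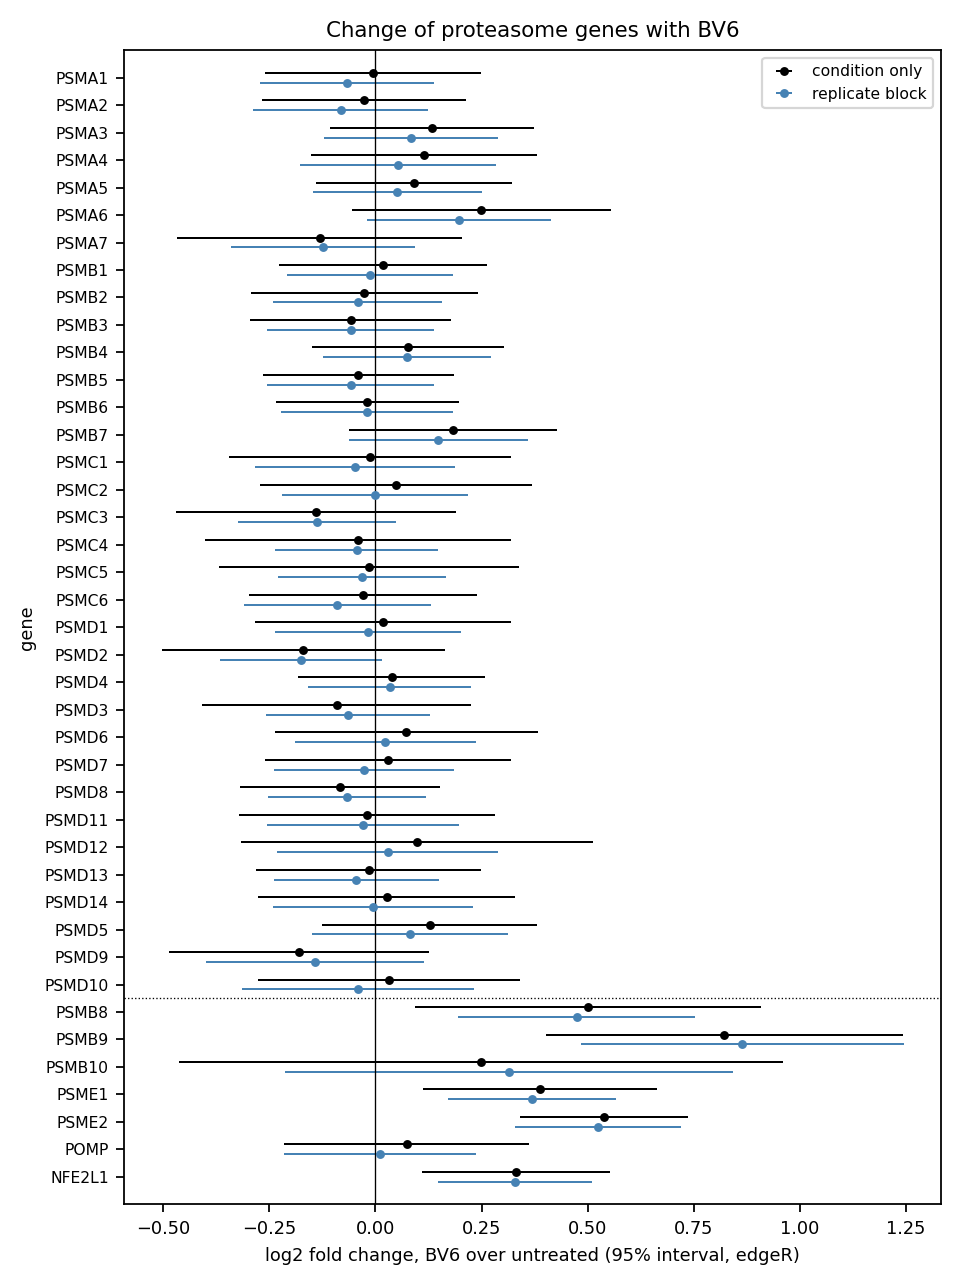
Log2 fold change of BV6-treated over untreated RH30 cells (x axis) for each gene (y axis), with points for the estimate and bars for its 95% interval, in the fit on condition only (black) and in the fit with the replicate block (blue). The 34 members lie above the dotted line with all intervals crossing 0, and the 7 other proteasome genes below it include PSME2, whose intervals stay above 0.

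The 7 alpha subunits, which form the gated outer rings of the core, had a median log2 fold change of 0.09, with 4 higher and 3 lower upon BV6 treatment. PSMA6 (alpha1; chr14:35278633-35317493, plus strand) had the smallest p of all members. Its level was 86.2, 118, 91.3 and 94.2 CPM in untreated replicates 1 to 4 and 129, 118 and 101 CPM in BV6 replicates 2 to 4. BV6 replicates 2 and 3 were high, and so was untreated replicate 2, so the groups overlapped. Untreated cells averaged 97.4 ± 14.0 CPM (SD, n = 4), treated cells averaged 116 ± 13.9 CPM (SD, n = 3), and BV6 over untreated gave a log2 fold change of 0.25 ± 0.136 (SE) with an adjusted p of 0.679 in edgeR and of 0.484 with the replicate block. Its CCGGAAG matches are printed above, and PSMC2 was the other member with more than 1 match. A processed copy, PSMA6P1, was listed with 5.97 to 7.28% of the PSMA6 counts in each library, so reads may have been split between them. PSMA6 also shares 14.1% of its exon bases with another protein-coding gene on the same strand. Such same-strand sharing was found for PSMA1 (26.7%), PSMA2 (17.2%) and PSMD9 (14.9%) as well, and its part in the counts was not tested.

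PSMA3 (alpha7) was at 86.3, 107, 94.3 and 98.6 CPM in untreated and at 111, 108 and 98.3 CPM in treated cells. The lowest treated sample lay below untreated replicates 2 and 4, and the log2 fold change was 0.13 ± 0.107 (SE, adjusted p of 0.774 in edgeR). PSMA7 (alpha4) averaged 165 ± 15.6 CPM in untreated (SD, n = 4) against 150 ± 32.4 CPM in treated samples (SD, n = 3), with BV6 replicate 3 lowest of all samples at 119 CPM and BV6 replicate 2 highest at 184 CPM. The remaining alpha subunits PSMA1, PSMA2, PSMA4 and PSMA5 had log2 fold changes between -0.03 and 0.11.

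Among the 7 beta subunits, 3 were higher and 4 lower, with a median of -0.02. The 3 that carry the proteolytic threonine are PSMB6 (beta1, caspase-like activity), PSMB7 (beta2, trypsin-like activity) and PSMB5 (beta5, chymotrypsin-like activity and main target of bortezomib). PSMB5 (chr14:23016543-23035230, minus strand) was at 118, 129, 115 and 125 CPM in untreated and at 130, 112 and 113 CPM in treated cells. PSMB6 (chr17:4796144-4798502, plus strand) was at 73.2, 75.1, 72.3 and 71.1 CPM in untreated and at 77.9, 69.8 and 68.3 CPM in treated cells. For both genes, the treated values enclosed the untreated mean, with 1 treated sample above all untreated samples and the other treated samples below them.

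The log2 fold changes were -0.04 ± 0.101 for PSMB5 and -0.02 ± 0.0960 for PSMB6 (SE, adjusted p of 0.935 and 0.968 in edgeR). PSMB6 had the lowest coefficient of variation of the members over the 7 samples, 4.48%. PSMB7 (chr9:124353465-124415444, minus strand) was at 124, 137, 135 and 129 CPM in untreated and at 165, 153 and 128 CPM in treated cells. BV6 replicates 2 and 3 exceeded all untreated samples, and BV6 replicate 4 did not. The log2 fold change of PSMB7 was 0.18 ± 0.109 (SE, adjusted p of 0.711 in edgeR). The structural subunits PSMB1, PSMB2, PSMB3 and PSMB4 had log2 fold changes between -0.06 and 0.08.

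Of the 6 base ATPases, which form the unfolding ring, 1 was higher and 5 were lower, with a median of -0.02 and no member past the test. PSMC3 (RPT5; chr11:47418769-47426473, minus strand) averaged 242 ± 34.3 CPM without BV6 (SD, n = 4) against 220 ± 38.1 CPM with BV6 (SD, n = 3), a log2 fold change of -0.14 ± 0.147 (SE, adjusted p of 0.825 in edgeR). PSMC2 (RPT1) was at 85.9 ± 11.6 and 88.9 ± 14.1 CPM, and its log2 fold change of 0.05 became -0.00124 with the replicate block. PSMC1, PSMC4, PSMC5 and PSMC6 lay between -0.04 and -0.01. Values of PSMC1 (RPT2) are uncertain, since the copy PSMC1P1 was listed with 58.4 to 60.9% of the PSMC1 counts in every library and 76.1% of the exon bases of PSMC1 are shared with NRDE2 on the opposite strand.

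The base scaffold comprised PSMD1 (RPN2), PSMD2 (RPN1) and the ubiquitin receptor PSMD4 (RPN10). PSMD2 (chr3:184299198-184309050, plus strand) was at 392, 507, 350 and 374 CPM in untreated and at 418, 332 and 332 CPM in treated cells. BV6 replicates 3 and 4 were below all untreated samples, but BV6 replicate 2 was above 3 of the 4. PSMD2 gave a log2 fold change of -0.17 ± 0.149 (SE, adjusted p of 0.789 in edgeR), and -0.18 ± 0.0822 (SE, adjusted p of 0.480) with the replicate block, the smallest adjusted p of the members in that fit. PSMD1 and PSMD4 had log2 fold changes of 0.02 and 0.04.

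The 8 lid subunits, which include the deubiquitinase PSMD14 (RPN11) and its partner PSMD7 (RPN8), had a median of 0.01, with 4 higher and 4 lower. PSMD12 (RPN5; chr17:67337916-67366605, minus strand) varied most of all members. Its level was 91.5, 144, 93.9 and 107 CPM in untreated and 139, 117 and 94.3 CPM in treated cells. The highest sample was untreated and the lowest was untreated as well, and the log2 fold change was 0.10 ± 0.185 (SE, adjusted p of 0.907 in edgeR). PSMD8 (RPN12) averaged 155 ± 9.93 CPM without BV6 (SD, n = 4) against 147 ± 14.4 CPM with BV6 (SD, n = 3), and PSMD14 at 88.2 ± 12.2 and 89.8 ± 10.7 CPM. All log2 fold changes of the lid lay between -0.09 and 0.10.

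Of the base chaperones, PSMD9 (chr12:121888732-121918297, plus strand) was at 28.6, 29.6, 24.1 and 24.0 CPM in untreated and at 25.5, 20.4 and 24.3 CPM in treated cells. BV6 replicate 3 was lowest, and the other treated samples were within the untreated range. The log2 fold change of PSMD9 was -0.18 ± 0.137 (SE, adjusted p of 0.766 in edgeR). PSMD10 (gankyrin) was at 38.7 ± 5.00 and 39.5 ± 4.72 CPM and had a log2 fold change of 0.03, and PSMD5 was at 74.8 ± 6.37 and 81.7 ± 7.85 CPM with a log2 fold change of 0.13. Without the 3 chaperones, the median of the remaining 31 members was -0.01.

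Divided by the length of the GENCODE canonical transcript, the members differed 17.6-fold in level in untreated cells. PSMA7 was highest at 171 ± 16.3 CPM per kb (SD, n = 4), followed by PSMB3 at 162 ± 7.84 and PSMC3 at 157 ± 22.3 CPM per kb. PSMD9 was lowest at 9.74 ± 1.08 CPM per kb, below PSMD5 at 22.1 ± 1.88 and PSMD12 at 25.1 ± 5.60 CPM per kb. The spread of the 3 highest overlapped, whereas PSMD9 was separated from all others in every sample. By group, the median was 95.2 CPM per kb in the alpha ring, 117 in the beta ring, 57.7 in the ATPases, 74.1 in the base non-ATPase subunits, 50.3 in the lid and 22.1 in the chaperones.

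Although the core and the base ATPases are built with fixed stoichiometry, RNA levels per kb of canonical transcript within a ring differed several-fold. The lowest and highest members were PSMA4 and PSMA7 in the alpha ring (30.6 and 171 CPM per kb). They were PSMB2 and PSMB3 in the beta ring (33.5 and 162) and PSMC2 and PSMC3 among the ATPases (31.7 and 157). Before division by length, these pairs averaged 134 and 165, 148 and 124, and 85.9 and 242 CPM in untreated cells. The gap of the alpha pair was thus small in CPM, and that of the beta pair was reversed. Which transcript of each gene RH30 cells express was not measured. In the lid, PSMD12 was lowest and PSMD8 highest (102 CPM per kb), and in the base scaffold PSMD1 and PSMD2 marked the ends (65.2 and 139 CPM per kb). All 34 members exceeded the median of the 17460 tested genes with a known length, 5.47 CPM per kb, and the median member stood at the 94.7th percentile. The order of the members was the same with little exception upon BV6 treatment, since 18 kept their rank, none moved by more than 3 ranks, and Spearman's rho over the 34 members was 0.99. It depended more on the length used: with the union of all exons, the rho against the first ranking was 0.79, PSMC3 was highest and PSMD9 again lowest. By that length, PSMA2 (12.2 CPM per kb in untreated cells) was below PSMA4 (19.1) and lowest in the alpha ring. Likewise, PSMD6 (6.67) was below PSMD12 (20.4) and lowest in the lid.

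**Figure D2:**
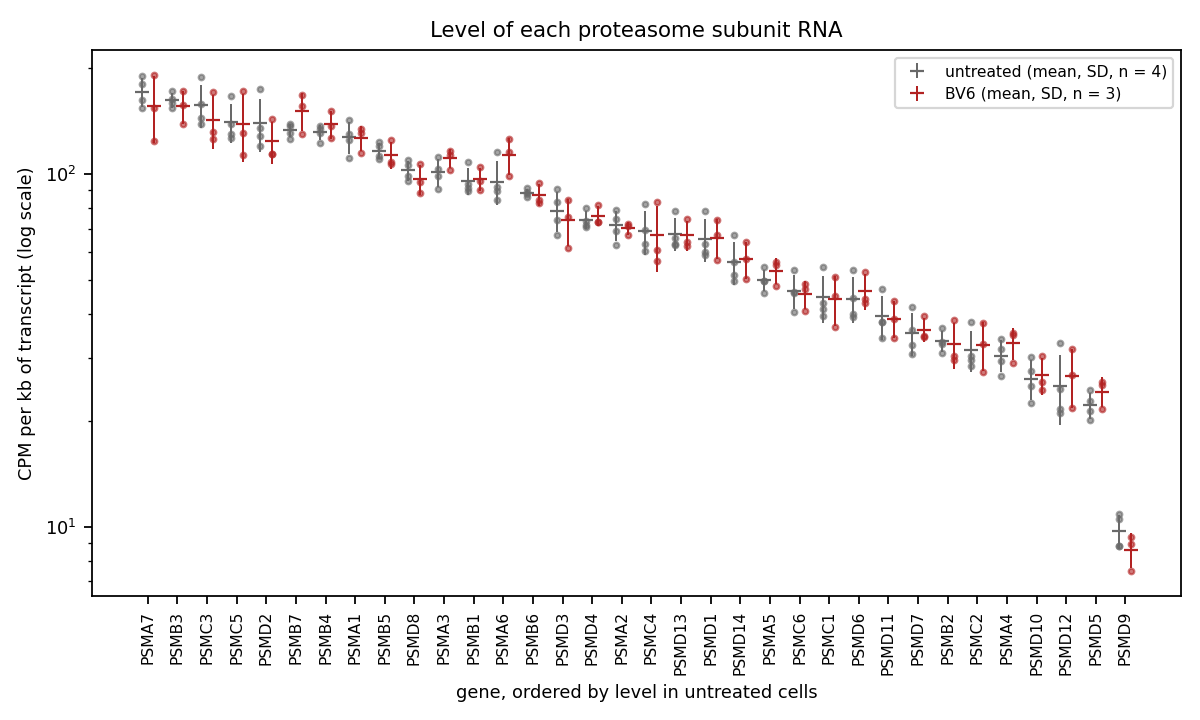
Level of each member in CPM per kb of canonical transcript (y axis, log scale), with genes on the x axis ordered by their level in untreated cells, points for single samples, and bars for the mean ± SD of 4 untreated (grey) and 3 BV6-treated samples (red). Levels fall from PSMA7 to PSMD9, and the groups overlap at every gene.

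The members varied together between samples more than with treatment. Summed over the 34 genes, the level was 4223, 5099, 4104 and 4306 CPM in untreated replicates 1 to 4 and 4950, 4253 and 4023 CPM in BV6 replicates 2 to 4. The replicate 2 samples, which share the code BC13, were the highest of their group in both conditions. The means were 4433 ± 452 (SD, n = 4) and 4408 ± 483 CPM (SD, n = 3), or 0.442 and 0.441% of all counts. Relative to its own mean over the 7 samples, the median member was at 0.19 in untreated and 0.15 in BV6-treated replicate 2 on the log2 scale, and between -0.10 and -0.02 in the other 5 samples, while the median of all tested genes stayed between -0.01 and 0.02.

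The highest sample was a BC13 sample for 30 of the 34 members (19 in untreated and 11 in BV6-treated cells) and for 28.3% of all tested genes. The other 4 members, PSMA4, PSMA5, PSMD5 and PSMD10, peaked in BV6 replicate 3. The lowest sample was untreated replicate 1 for 14 members, BV6 replicate 3 for 10, BV6 replicate 4 for 6 and untreated replicate 3 for 4. Over the 7 samples, the coefficient of variation was 4.48 to 19.5% with a median of 10.8%, against a median of 19.6% over all tested genes. This comparison too was not matched for level, and the members are among the more highly expressed genes. Without both BC13 samples, 0 members were called in edgeR, where 0.105% of all genes were, and the median log2 fold change of the members was 0.02.

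**Figure D3:**
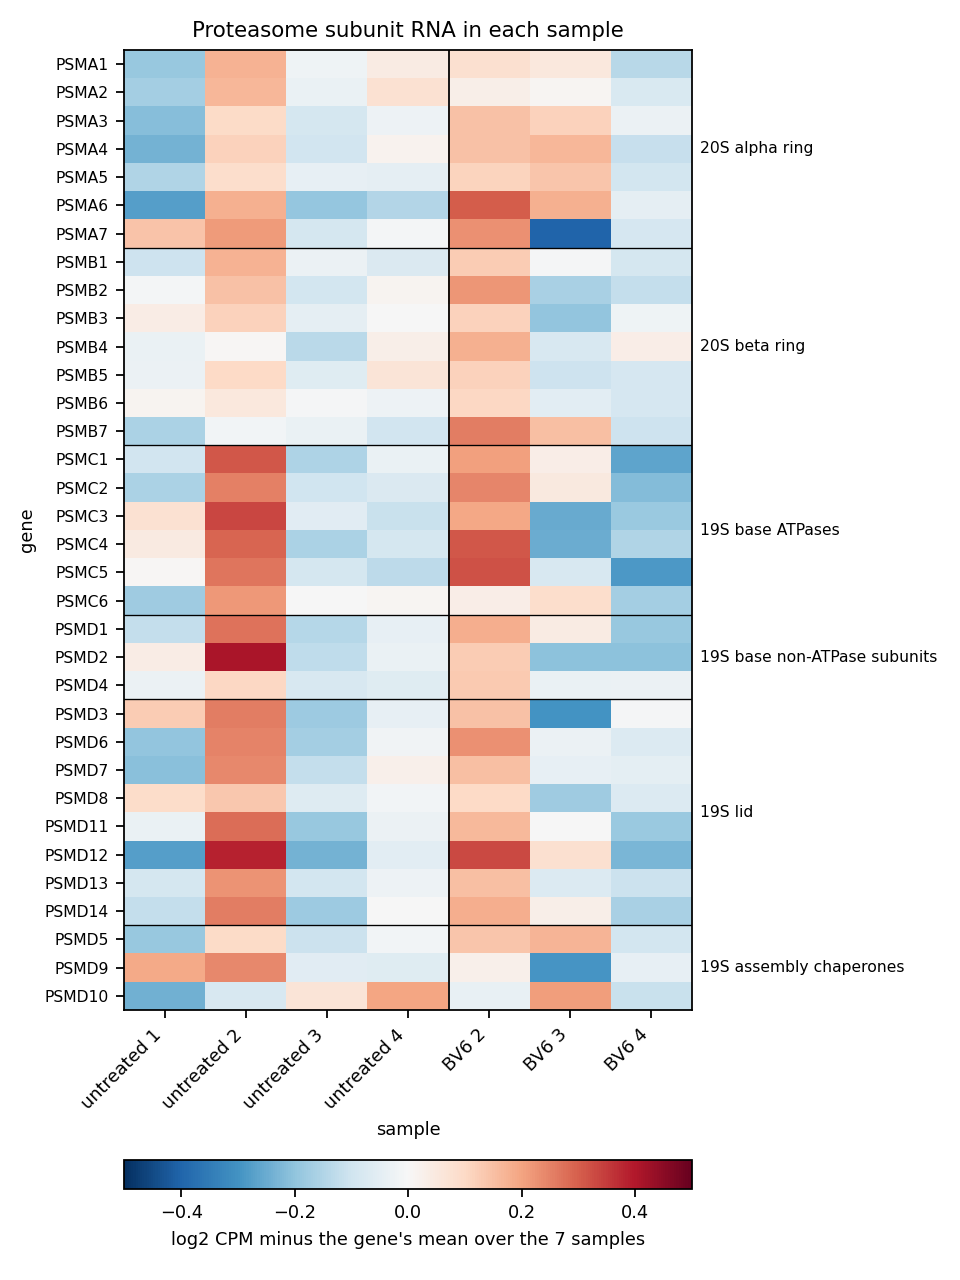
Log2 CPM of each member (rows, grouped by subcomplex) in each sample (columns) minus the mean of that gene over the 7 samples, in color from blue (below) to red (above). Untreated replicate 2 and BV6 replicate 2 are red for most genes, and the vertical line between the untreated and BV6-treated samples does not separate the colors.

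Paired by BC code, 15 of the 34 members were higher in the BV6-treated sample in replicate 2, 23 in replicate 3 and 5 in replicate 4, where all tested genes were higher at 49.6, 44.7 and 50.3%. The median differences of the members were -0.01, 0.06 and -0.08 on the log2 CPM scale. PSMA6, PSMB4 and PSMD4 were higher in all 3 pairs, 3 of 34 members against 15.5% of all genes. PSMB3, PSMC3, PSMD2 and PSMD8 were lower in all 3 pairs, 4 of 34 members against 17.8% of all genes. For PSMA6, the differences were 0.12, 0.37 and 0.10, and for PSMD2 they were -0.28, -0.08 and -0.17. Some of the differences counted were very small, such as 0.0011 for PSMB4 in replicate 4 and -0.0030 for PSMB3 in replicate 2.

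The within-pair differences moved with base composition, to an extent that differed between pairs. The GC content of the canonical transcripts of the members ran from 36.4% to 58.5%. Over the 34 members, Pearson's r between GC content and the BV6 minus untreated difference was -0.01 in replicate 2, -0.71 in replicate 3 and 0.40 in replicate 4. Over the 17460 tested genes with a GC value, r was -0.07, -0.49 and 0.24. These values describe genes of the same libraries, which are not independent replicates, and their part in the differences between members was not tested. After a correction of each library for its trend with GC content, 0 of 34 members were called in edgeR, where 1.21% of the genes with a GC value were. With both the correction and the replicate block, 0 members were called against 7.42% of these genes. In that fit, 2 of 34 members, PSMA6 and PSMD2, passed an unadjusted threshold of 0.05 in edgeR. This was below the 21.0% of the genes with a GC value that did.

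**Figure D4:**
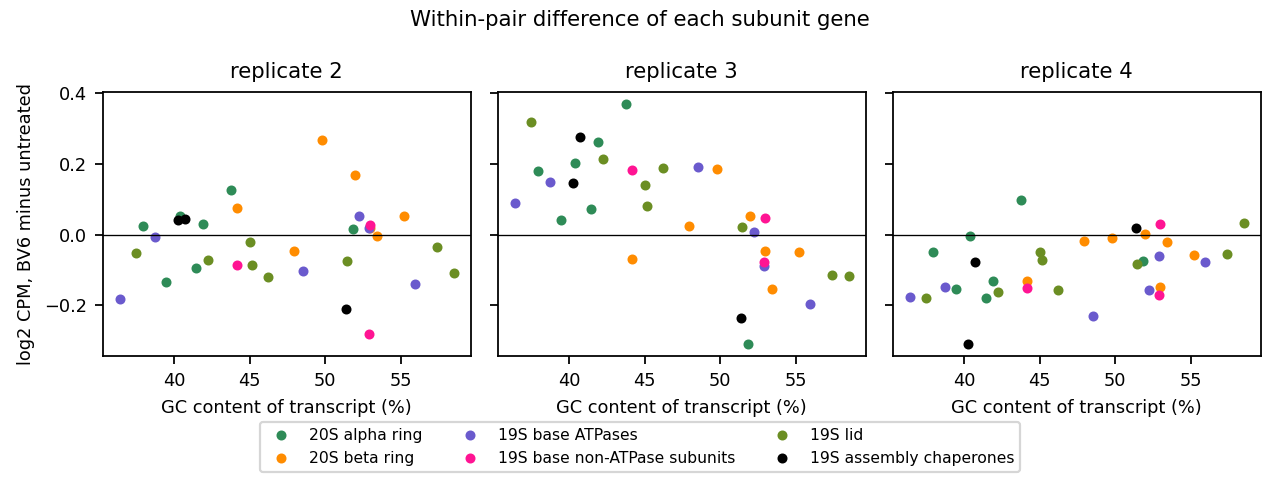
Difference in log2 CPM between the BV6-treated and the untreated sample of the same replicate (y axis) against the GC content of the canonical transcript in percent (x axis), with 1 point per member colored by subcomplex and 1 panel per replicate. In replicate 3 most members of low GC content lie above 0 and most of high GC content below, with r = -0.71, whereas in replicate 4 r is 0.40.

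The other genes of the proteasome pathway were taken as 7 lists with 41 genes in total, of which 39 passed the filter. After adjustment, 1 was called up and 0 down in edgeR, where 0.45% of all tested genes were called. An unadjusted p below 0.05 was found for 7 of the 39, against 8.39% of all tested genes. The median log2 fold change of the 39 genes was 0.07, against -0.01 for all tested genes. The thymus subunit PSMB11 and the testis subunit PSMA8 were at or near 0 CPM and were not tested. The called gene was PSME2 (chr14:24143362-24147570, minus strand), which encodes the beta subunit of the PA28 activator, a ring that caps the core in place of the 19S particle and is interferon-inducible. PSME2 was at 107, 110, 110 and 112 CPM in untreated and at 156, 168 and 154 CPM in treated cells. The treated samples were all above the untreated ones. PSME2 thus rose from a mean of 110 ± 2.46 (SD, n = 4) up to 159 ± 7.63 CPM (SD, n = 3), and its log2 fold change was 0.54 ± 0.0885 (SE, adjusted p of 0.0368 in edgeR and of 0.0385 with the replicate block).

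In DESeq2 with all samples, PSME2 had an adjusted p of 4.12e-06. Its call in edgeR rested on the full set of samples. In the 7 fits that left out 1 sample each, the log2 fold change of PSME2 stayed between 0.50 and 0.57 but its adjusted p was 0.106 to 0.168 in edgeR. Without both BC13 samples, its log2 fold change was 0.56 and the call was lost as well. The alpha subunit gene PSME1 averaged 130 ± 14.5 CPM in untreated cells against 170 ± 19.5 CPM in treated ones. Its log2 fold change was 0.39 ± 0.123 (SE, adjusted p of 0.369 in edgeR), which did not pass the test. PSME3, PSME4 and the inhibitor PSMF1 had log2 fold changes between -0.04 and 0.09.

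The immunoproteasome subunits PSMB9 (beta1i), PSMB10 (beta2i) and PSMB8 (beta5i) were expressed at a low level compared with the constitutive ones. PSMB9 was at 9.09, 6.13, 10.3 and 10.2 CPM in untreated and at 15.0, 15.3 and 17.0 CPM in treated cells, so the groups did not overlap. Its log2 fold change was 0.82 ± 0.187 (SE), with an adjusted p of 0.150 in edgeR, 0.0667 with the replicate block and 0.00796 in DESeq2. PSMB8 was at 9.64 ± 1.65 and 13.6 ± 2.38 CPM, with overlapping groups and a log2 fold change of 0.50 ± 0.182 (SE, adjusted p of 0.481 in edgeR). PSMB10 had a log2 fold change of 0.25 ± 0.318 (SE, adjusted p of 0.853 in edgeR). The transcript PSMB8-AS1 shares 17.3% of the exon bases of PSMB8 on the opposite strand and 5.21% of those of PSMB9 on the same strand. PSMB8 and PSMB9 also share 139 exon bases with each other on opposite strands. Of the PSMB10 exon bases, 39.4% are shared with another protein-coding gene on the same strand. The sources used here do not state how strand was handled in counting.

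Set against the constitutive subunit of the same site and per kb of transcript, PSMB9 made up 9.14, 6.20, 10.3 and 10.4% of the beta1 pair (PSMB6 and PSMB9) in untreated and 13.5, 15.1 and 16.8% in treated cells. The treated shares were all above the untreated ones, with means of 9.02 ± 1.97% (SD, n = 4) and 15.1 ± 1.65% (SD, n = 3). For beta5, the share of PSMB8 was 5.27 to 7.85% in untreated and 7.30 to 11.4% in treated cells, and for beta2, the share of PSMB10 was 2.81 to 4.94% and 2.10 to 5.67%, with overlapping groups in both. These shares were chosen after the values of the genes were seen and carry no test.

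**Figure D5:**
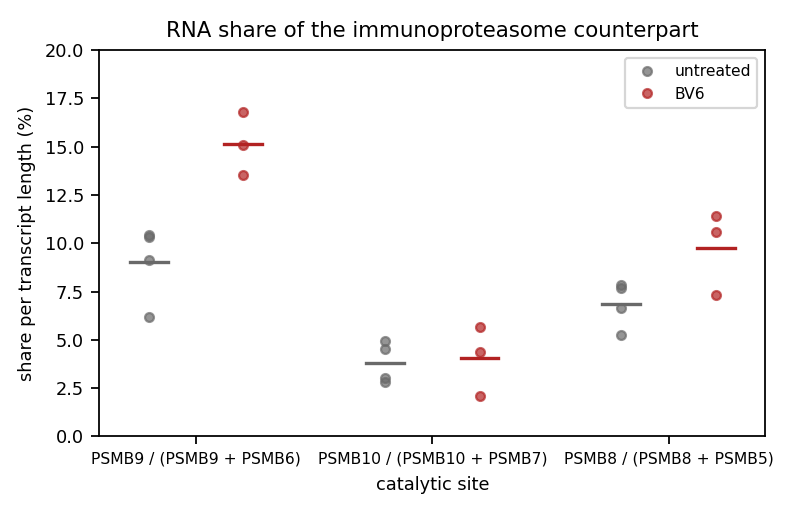
Share of the immunoproteasome subunit in the RNA of each catalytic pair, in percent of the summed CPM per kb (y axis), for the beta1, beta2 and beta5 sites (x axis, left to right), with points for samples and lines for the group means. Only at the beta1 site do the 3 BV6-treated samples, at 13.5 to 16.8%, all lie above the untreated samples, at 6.20 to 10.4%.

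An interferon-type pattern, 2 copies of GAAA with any 2 bases between them, was searched in the same RefSeq promoter windows, since PSME1, PSME2, PSMB8, PSMB9 and PSMB10 are known as interferon-inducible genes. It occurred in 2 of 29 members, PSMA4 and PSMB4, in 6 of 35 pathway genes with a promoter entry, and in 4.38% of all 27305 genes with one. PSMB9 had no match in its window, whereas PSMG4, a core assembly chaperone, and NGLY1, the glycanase that processes NFE2L1, had one. The matches are shown side by side with capitals for the pattern, and a match on the opposite strand appears with TTTC in place of GAAA. Their positions are chr15:78540155-78540184 (PSMA4, plus strand), chr1:151399495-151399524 (PSMB4, plus), chr6:32844032-32844061 (PSMB8, minus), chr16:67936852-67936881 (PSMB10, minus), chr14:24136189-24136218 (PSME1, plus), chr14:24146619-24146648 (PSME2, minus), chr6:3258904-3258933 (PSMG4, plus) and chr3:25790241-25790270 (NGLY1, minus).
PSMA4: atagtgaagaGAAAATGAAAggagagcgcc
PSMB4: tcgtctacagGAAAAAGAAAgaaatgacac
PSMB8: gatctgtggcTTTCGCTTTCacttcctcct
PSMB10: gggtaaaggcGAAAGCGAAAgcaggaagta
PSME1: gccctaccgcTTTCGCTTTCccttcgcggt
PSME2: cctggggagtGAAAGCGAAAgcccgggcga
PSMG4: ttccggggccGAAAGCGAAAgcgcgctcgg
NGLY1: catggcgagaGAAAAAGAAAtcaggcccca
In PSMB8, PSMB10, PSME1, PSME2 and PSMG4 the pattern begins within 33 bases of the start, and the letters between the repeats are GC on the strand of the match. In PSMA4, PSMB4 and NGLY1 these letters are AT, AA and AA, and the pattern begins at positions -240, -68 and -221. PSMA4, PSMB4, PSMG4 and NGLY1 had log2 fold changes of 0.11, 0.08, 0.11 and 0.17 and were not called.

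NFE2L1, which encodes the factor that raises proteasome genes, was at 321, 334, 301 and 331 CPM in untreated and at 428, 363 and 424 CPM in treated cells. The groups did not overlap, and the log2 fold change was 0.33 ± 0.0990 (SE), with an adjusted p of 0.312 in edgeR, 0.132 with the replicate block and 0.170 in DESeq2. Of the other genes needed to activate the NFE2L1 protein, DDI2, NGLY1 and VCP had log2 fold changes of 0.11, 0.17 and 0.02, none called. The core maturation factor POMP was at 85.2 ± 9.69 and 89.6 ± 11.4 CPM with a log2 fold change of 0.07 (adjusted p of 0.898 in edgeR). The remaining lists held 6 further assembly chaperones (PSMG1 to PSMG4, POMP and PAAF1), 7 genes of 19S-associated proteins and 7 of transcriptional control. They also held 5 shuttle receptors and 6 ubiquitin and E1 genes. Of all these genes, 0 passed the test in edgeR after adjustment. At an unadjusted p below 0.05 these lists held NFE2L1, NFE2L2 and UBQLN2 in edgeR, a threshold that 8.39% of all tested genes passed.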

How the data were processed

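The authors prepared poly(A)-selected, stranded, paired-end libraries, mapped reads to GRCh38 with STAR 2.6.1d and deposited raw counts per gene from a union model of Ensembl isoforms. The counting program, the treatment of strand, of multi-mapping reads and of mates is not given in the sources used here. Groups came from the treatment label and pairs from the BC code in the titles, whose meaning is not stated. The study's heat map of these data refers to biological replicates. Nothing in the labels states separate cultures, so p-values measure the spread between these samples.

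Counts were tested with edgeR 4.0.16 in R 4.3.3 (filterByExpr with a minimum count of 10, TMM, glmQLFit, glmQLFTest, Benjamini-Hochberg adjustment over 23124 genes, called below 0.05), the replicate block and DESeq2 1.42.0 being alternatives. The sources used here state no design formula. Intervals are 95% t intervals from the standard error, and the scripts were tested on simulated data. CPM used TMM library sizes, a pseudocount of 0.1 for differences within pairs, and GENCODE 44 canonical transcripts for length and GC content (GC trend by loess with a span of 0.5). Between 54070030 and 77220882 counts per library put a limit of 3 counts at 0.0388 to 0.0555 CPM.

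Same-numbered samples deviated together (r of 0.46, 0.44 and 0.08 from the group means, and 0.52, 0.32 and 0.20 over the 3 complete pairs). Samples with different numbers had r of -0.44 to 0.28 and, over the complete pairs, of -0.35 to 0.13, so that pair 4 stood out only in the latter. With all samples, BV6 replicate 4 had its highest r, 0.28, with untreated replicate 1, which is absent from the complete pairs. The numbers were taken as pairs on the latter values and the shared codes, and for replicate 4 mainly on the code. Replicate libraries differed by more than sampling noise.

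The members and gene lists were chosen with earlier results of these data known. Values were printed for the 5 members with the smallest p, PSMB5, PSMB6 and PSMB7, the highest and lowest member per kb of each group, called genes, and PSMB8, PSMB9, PSMB10, PSME1, PSME2, POMP and NFE2L1. Others were named to account for their group.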

Additional observations from a re-analysis of the deposited data

How the results depend on the processing

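The number of members called stayed at 0 in all settings tried, including the replicate block, DESeq2, RLE scaling, other count filters, the fits leaving out 1 sample each, and the GC settings and the removal of BC13, which were chosen after seeing the data. At an unadjusted p below 0.05, 1 member appeared without untreated replicate 2 (8.1% of all genes) and 2 without BV6 replicate 4 (10.6% of all genes). The median log2 fold change of the members ranged from -0.05 to 0.07 when 1 sample was left out. Among all genes, 104 were called, but 218 with the replicate block, 447 with DESeq2 and 242 with no filter. There were 25 without BC13 and 38 to 89 with 1 sample left out. Among the 17460 genes with a GC value, 211 were called with GC correction and 1295 with GC correction and block. The 1 called pathway gene became 2 with DESeq2 and 2 with GC correction (PSMB9 and PSME2), 6 with GC correction and block (with PSMB8, PSME1, NFE2L1 and UBQLN2), 0 without BC13, and 0 to 0 with 1 sample left out. The cause of these differences was not tested beyond the smaller number of samples in some fits.

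Signs of small fold changes turned in some fits. With the replicate block, log2 fold changes were -0.00124 for PSMC2, -0.0179 for PSMD1 and -0.0407 for PSMD10. With GC correction they were 0.0256 for PSMB6, -0.0381 for PSMC2, -0.0396 for PSMD1, 0.0102 for PSMD8, -0.0452 for PSMD10 and -0.0225 for POMP. With GC correction and replicate block they were 0.000859 for PSMB6, -0.0371 for PSMC2, -0.0405 for PSMD1, -0.0109 for PSMD12, -0.0725 for PSMD10 and -0.0356 for POMP. Leaving out 1 sample gave ranges of -0.0617 to 0.116 for PSMD1, -0.0656 to 0.106 for PSMD10, -0.148 to 0.0481 for PSMB2, -0.0572 to 0.160 for PSMC2, -0.0352 to 0.258 for PSMD12, -0.105 to 0.00434 for PSMB5, -0.0710 to 0.0160 for PSMB6, -0.295 to 0.0157 for PSMA7 and -0.128 to 0.0236 for PSMB3. None of these values passed the test. The block changed no call of a member or of PSME2.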

Other observations

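ADRM1 (RPN13) is a ubiquitin receptor that docks on PSMD2 and recruits the deubiquitinase UCHL5. ADRM1 varied more between samples than any of the 34 members and was picked after its values were seen. It was at 87.9, 84.3, 41.0 and 40.3 CPM in untreated and at 71.8, 24.1 and 49.0 CPM in treated cells. Untreated replicates 1 and 2 and BV6 replicate 2 were high, and BV6 replicate 3 was lowest. The groups overlapped, and the log2 fold change was -0.39 ± 0.391 (SE, adjusted p of 0.817 in edgeR). Its transcript has a GC content of 63.2%, above that of every member, and 11.4% of its exon bases are shared with LAMA5 on the opposite strand. The part of either in its spread was not tested. UCHL5 was at 53.4 ± 7.84 (SD, n = 4) and 56.1 ± 6.31 CPM (SD, n = 3).

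The ubiquitin precursor gene UBB, picked after its values were seen, had a higher level per kb than any subunit. It reached 860 ± 24.4 CPM per kb (SD, n = 4) in untreated cells. Its log2 fold change was -0.03 and did not pass the test in edgeR. Of the UBB exon bases, 29.4% are shared with a non-coding transcript on the opposite strand, whose part in this level was not tested. The shuttle receptor UBQLN2, named here after its values were seen, was at 70.9 ± 3.84 CPM (SD, n = 4) in untreated and at 90.6 ± 5.85 CPM (SD, n = 3) in treated cells, without overlap, and its log2 fold change of 0.35 ± 0.0986 (SE) had an adjusted p of 0.261 in edgeR.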
